A study of Mus musculus with 6 samples.

Results

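Nkx2-1, Nkx2-2, Nkx2-9, Nkx6-1 and Nkx6-2 are 5 homeobox genes of neural patterning, examined here for H3K9cr and H3K9ac, the crotonylated and acetylated forms of lysine 9 of histone H3. They were chosen by name from 21883 protein-coding genes with a GRCm38 position. All peaks that overlapped a gene's annotated record or the 10 kb on either side were taken as that gene's peaks, and this stretch is called its window. The data came from P19, a mouse embryonal carcinoma line grown in MEM alpha with 10% fetal bovine serum, with the same untreated line in every group. Chromatin was precipitated natively, without crosslinking, using 1 antibody per mark, and each mark had 2 biological replicates according to the series design. Effects of the mark and of its antibody therefore cannot be told apart. The 2 input libraries were not analysed here.

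The NK homeobox genes encode DNA-binding transcription factors. In the ventral neural tube, Sonic hedgehog signalling induces Nkx2-2, Nkx2-9, Nkx6-1 and Nkx6-2, whose proteins help to divide the progenitors into domains as repressors that recruit Groucho corepressors. Nkx2-1 acts in the ventral forebrain, the thyroid and the lung, and Nkx2-2 and Nkx6-1 also act in the endocrine pancreas. H3K9ac is a mark of promoters and enhancers in use, and H3K9cr is a related acylation of the same residue that uses crotonyl-CoA. P19 cells can be turned into neurons with retinoic acid, but the cells measured here were kept in proliferation medium.

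All 5 genes carried peaks of both marks in every library, as did 71.3% of protein-coding genes. With only peaks of a -log10 q-value of at least 10, Nkx2-1 kept a peak in 2 of the 4 libraries and the other 4 genes in all. Their peaks differed widely in placement and height: Nkx2-9, Nkx6-1 and Nkx6-2 had a peak over the annotated start in all 4 libraries, Nkx2-2 only in H3K9cr replicate 1, and Nkx2-1 in none. Of 21262 annotated starts in the RefSeq table, 54.1% lay inside a peak in all 4 libraries and 40.3% in none. The start of Nkx2-1 lay 306 and 291 bp from the nearest peak in the H3K9cr libraries, in order of replicate, and 1685 and 213 bp from it in the H3K9ac libraries. At Nkx2-2 the peak over the start in H3K9cr replicate 1 was a short one of 293 bp with a summit pileup of 11.3, at percentile 1.18 of its list. In the other 3 libraries the nearest peak was 1068, 138 and 224 bp away.

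The promoters are shown to place these peaks on the sequence and to contrast the 3 starts inside a peak with the 2 outside. Each runs 5′ to 3′ from 250 bases before the start to 50 after it, from RefSeq, build GRCm38.p6. All 5 genes lie on the minus strand. Capitals mark the bases that lay inside a peak in all 4 libraries. The windows are chr12:56536859-56537158 for Nkx2-1, chr2:147186353-147186652 for Nkx2-2, chr12:56613235-56613534 for Nkx2-9, chr5:101664662-101664961 for Nkx6-1 and chr7:139582748-139583047 for Nkx6-2.
Nkx2-1: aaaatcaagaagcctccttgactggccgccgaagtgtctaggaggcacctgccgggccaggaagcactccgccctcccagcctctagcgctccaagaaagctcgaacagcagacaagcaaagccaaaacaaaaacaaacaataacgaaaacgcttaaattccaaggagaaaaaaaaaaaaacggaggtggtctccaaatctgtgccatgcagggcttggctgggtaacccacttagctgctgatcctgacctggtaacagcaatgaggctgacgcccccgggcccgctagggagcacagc
Nkx2-2: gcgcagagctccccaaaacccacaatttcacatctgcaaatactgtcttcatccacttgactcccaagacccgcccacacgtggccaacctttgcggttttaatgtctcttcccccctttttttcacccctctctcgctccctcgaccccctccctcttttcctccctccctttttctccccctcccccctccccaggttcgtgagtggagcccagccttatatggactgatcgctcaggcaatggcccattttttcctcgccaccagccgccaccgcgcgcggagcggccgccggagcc
Nkx2-9: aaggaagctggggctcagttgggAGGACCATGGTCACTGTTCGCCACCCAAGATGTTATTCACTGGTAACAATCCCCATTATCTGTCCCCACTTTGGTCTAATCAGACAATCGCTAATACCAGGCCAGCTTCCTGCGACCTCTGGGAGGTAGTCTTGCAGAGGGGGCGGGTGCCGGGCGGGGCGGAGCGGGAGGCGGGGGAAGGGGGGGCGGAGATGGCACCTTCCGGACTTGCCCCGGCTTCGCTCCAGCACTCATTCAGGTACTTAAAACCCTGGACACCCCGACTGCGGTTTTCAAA
Nkx6-1: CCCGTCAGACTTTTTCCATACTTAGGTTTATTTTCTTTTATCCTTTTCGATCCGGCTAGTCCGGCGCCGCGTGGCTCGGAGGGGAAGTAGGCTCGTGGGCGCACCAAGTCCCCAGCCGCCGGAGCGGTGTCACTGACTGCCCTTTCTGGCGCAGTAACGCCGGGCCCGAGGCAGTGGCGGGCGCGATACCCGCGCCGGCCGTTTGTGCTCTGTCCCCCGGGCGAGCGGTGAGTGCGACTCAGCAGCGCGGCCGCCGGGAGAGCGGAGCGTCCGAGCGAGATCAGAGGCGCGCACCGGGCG
Nkx6-2: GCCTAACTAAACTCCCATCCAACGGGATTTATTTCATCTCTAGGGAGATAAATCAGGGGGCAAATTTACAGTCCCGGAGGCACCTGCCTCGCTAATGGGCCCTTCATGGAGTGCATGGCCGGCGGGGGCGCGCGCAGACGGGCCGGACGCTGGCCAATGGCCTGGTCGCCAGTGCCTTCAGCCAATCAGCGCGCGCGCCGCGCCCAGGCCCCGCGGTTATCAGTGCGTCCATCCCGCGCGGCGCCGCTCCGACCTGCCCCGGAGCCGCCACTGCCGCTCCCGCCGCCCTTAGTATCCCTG

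The printed promoters of Nkx6-1 and Nkx6-2 lay wholly inside peaks, and 277 of the 300 bases of Nkx2-9 did, whereas the Nkx2-1 promoter had no base in a peak of any library. At Nkx2-2, 281 bases were covered in H3K9cr replicate 1, 27 in H3K9ac replicate 2 and 0 in the other libraries. The promoters also differed in base composition. The ratio of observed to expected CpG was 1.18 at Nkx6-1 and 0.972 at Nkx6-2, which placed both in the highest quintile of all annotated starts. Nkx2-2 followed with 0.791, and Nkx2-9 and Nkx2-1 were nearly equal at 0.571 and 0.559. Over all annotated starts, the share inside a peak in all 4 libraries was 2.42% in the lowest quintile by CpG ratio, 68.9% in the third, 86.7% in the fourth and 92.5% in the highest. Nkx2-9 and Nkx2-1 both belonged to the third quintile, the former with and the latter without a peak over the start, and Nkx2-2 belonged to the fourth.

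Short motifs were searched on both strands of these promoters by exact match. The GC box GGGCGG was found in 4 of the 5, all but Nkx6-1, and in 46.2% of all promoters of this length. Nkx2-9 held 4 copies, with first bases at positions -87, -76, -71 and -44 from the start, of which those at -76 and -71 overlap by 1 base. The CCAAT box (CCAAT) was found only in Nkx6-2, at positions -97 and -69, compared with 38.2% of all promoters. The core CACTTG, recognised by NK2-type homeodomains, was found only in Nkx2-2, at position -197 (13.1% of all promoters). TATAAA (12.6% of all promoters), TAATTA (4.53%) and the GLI-type site GACCACCCA (0.179%) had no exact match in any of the 5. A match is a description of the letters, and binding was not measured.

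**Figure D1:**
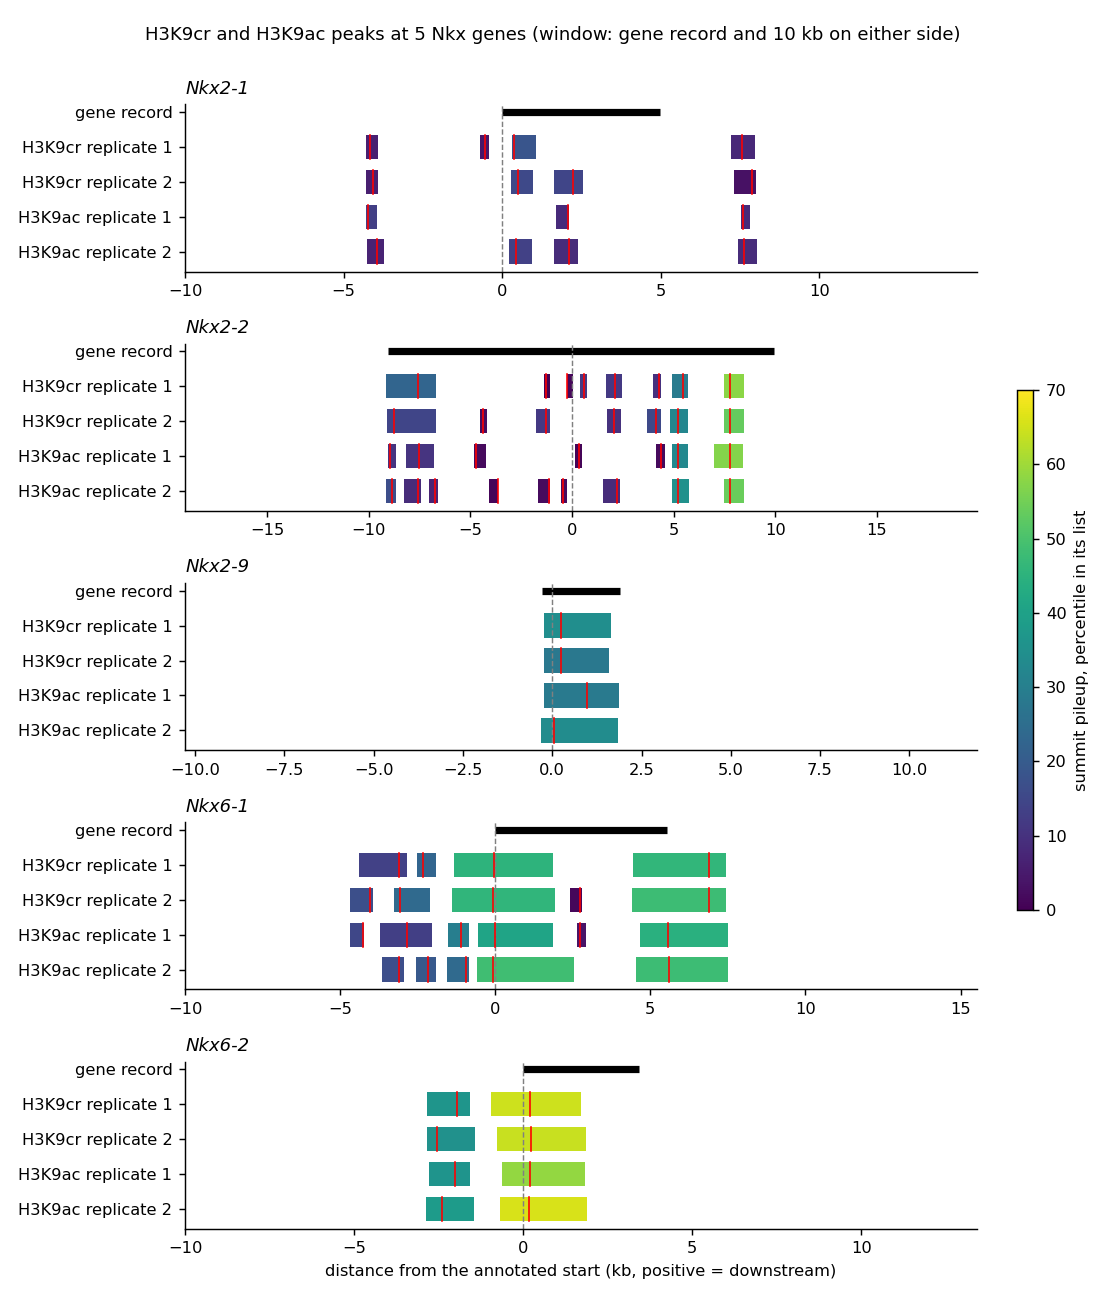
Peaks of each library in the windows of the 5 genes, drawn along the distance from the annotated start in kb (positive is downstream, dashed line at the start), with the gene record in black, each summit as a red tick and fill colour for the percentile of summit pileup in its list. Nkx2-9, Nkx6-1 and Nkx6-2 have a broad peak across the start in all 4 libraries, whereas the tallest peak of Nkx2-2 lies more than 7 kb downstream and no peak crosses the start of Nkx2-1.

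The 4 lists held 26096 to 28360 peaks covering 36.4 to 42.1 Mb, and read depth is not given in the sources used here. Of these peaks, 19, 19, 19 and 21 lay in the 5 windows, in the order H3K9cr replicates 1 and 2 and H3K9ac replicates 1 and 2, which is the order used for all values below. Pileup (coverage at the summit) and fold enrichment are the values of the authors' peak caller, and only their ranks within a list were compared between libraries. The label of the line was checked against markers: 8 of 8 pluripotency markers were occupied in all 4 libraries, whereas the hepatocyte genes Alb and Ttr, the leukocyte gene Ptprc and the globin gene Hbb-bt had no peak in any. Occupancy does not separate cell types cleanly, since 8 of 12 markers of other cell types had a peak in all 4.

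The height of the tallest peak separated the 5 genes more than it separated the marks. At Nkx2-1 the highest summit pileup was 20.7, 19.1, 15 and 19.5, which stood at percentiles 18.3, 15.6, 12.9 and 13.6 of the lists. Its tallest peak was therefore a weak one in every library, and only 0.590% of the 15599 genes occupied in all libraries had a lower mean percentile. Both H3K9cr values lay above both H3K9ac values, as they did at 32.3% of these genes (the reverse held at 9.04%), and the exact permutation test gave p = 0.333 (n = 2 per mark), the smallest value that 2 libraries against 2 allow. This ordering compares different sites, since the tallest peak of H3K9ac replicate 1 had its summit at -4242 bp from the start, and those of the other 3 libraries lay 379 to 498 bp downstream.

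Nkx2-2 had a highest pileup of 93.0, 77.6, 73 and 91.8, at percentiles 57.8, 53.5, 56.9 and 54.0. The marks overlapped, and 18.1% of occupied genes ranked lower. For Nkx2-9, the neighbour of Nkx2-1 on chromosome 12, the pileup of its single peak was 35.7, 28.2, 25 and 39.1, at percentiles 34.4, 28.1, 28.6 and 33.8. Here too the marks overlapped, and the replicates of each mark differed more than the marks did. Only 3.87% of occupied genes ranked lower.

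Nkx6-1, which specifies motor neuron progenitors and is later used by pancreatic beta cells, had a highest pileup of 57.3, 60.7, 45 and 72.2, at percentiles 46.1, 47.9, 44.5 and 48.4. Nkx6-2, its close relative in ventral progenitors and oligodendrocytes, had 124, 122, 78 and 151, at percentiles 64.6, 64.1, 58.6 and 65.9. The tallest peak of Nkx6-1 lay over the 3′ end of the record in 3 libraries and over the start in H3K9ac replicate 2. The H3K9ac values of both genes enclosed those of H3K9cr, so the marks overlapped at each. Lower means were held by 11.0% of occupied genes for Nkx6-1 and 26.2% for Nkx6-2. In each library the order was Nkx6-2, Nkx2-2, Nkx6-1, Nkx2-9 and Nkx2-1, and the ranges of neighbours in this order over the 4 libraries did not overlap.

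The tallest peak was sought over each whole window, and window length and other genes inside it were not matched. On this measure all 5 genes stayed below the typical occupied gene, whose median percentile was 79.7, 79.9, 77.8 and 79.3. Fold enrichment kept part of this picture. Its largest value in the window was 5.51, 6.61, 5.42 and 6.88 at Nkx2-1 and 31.2, 35.5, 25.5 and 44.8 at Nkx6-2. The mean percentile by fold enrichment was 17.1 for Nkx2-1, 30.6 for Nkx2-9, 50.2 for Nkx6-1, 55.9 for Nkx2-2 and 63.0 for Nkx6-2. The means thus followed the order by pileup, but single libraries did so only in H3K9cr replicate 2. Nkx2-2 ranked just above Nkx6-2 in H3K9cr replicate 1 (61.3 for both) and above it in H3K9ac replicate 1 (60.0 against 58.1), and Nkx6-1 ranked above Nkx2-2 in H3K9ac replicate 2 (52.4 against 51.2). The marks also ordered differently by fold enrichment. They overlapped at Nkx2-1. At Nkx2-9 the percentiles were 33.8 and 38.3 for H3K9ac and 17.1 and 33.1 for H3K9cr (exact permutation p = 0.333, n = 2 per mark). The nearest values of the 2 marks were thus close, and the share of all genes with this ordering was not computed. The limma fit described below, run on ranks of fold enrichment, gave Nkx2-9 an adjusted p of 0.9999.

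**Figure D2:**
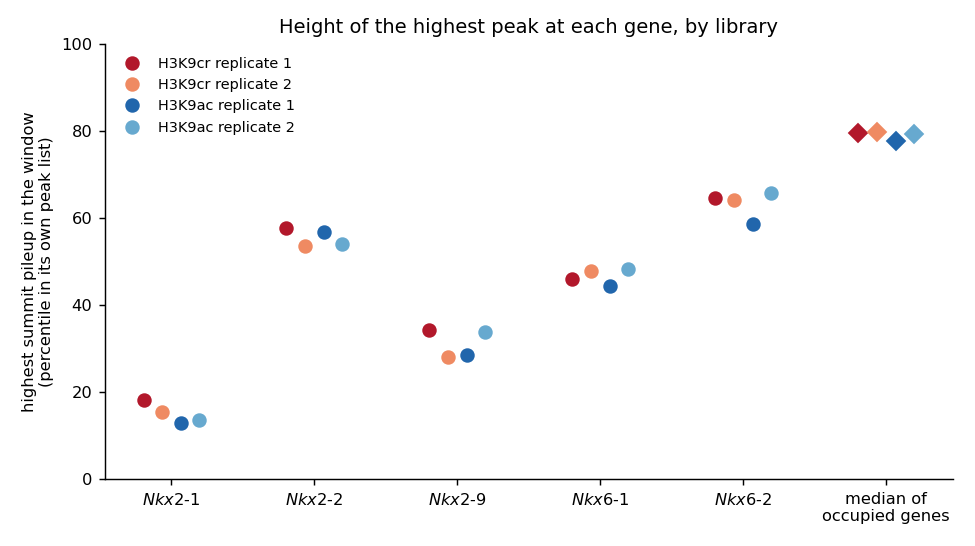
Percentile of the highest summit pileup in each window within its own peak list, 1 point per library, with diamonds for the median of the 15599 genes occupied in all libraries. Nkx2-1 lies between 12.9 and 18.3 and Nkx6-2 between 58.6 and 65.9, all below the medians of 77.8 to 79.9.

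Peaks at Nkx6-1 and Nkx2-9 were long for their height in every library. The widest peak at Nkx6-1 measured 3212, 3338, 2830 and 3124 bp, at percentiles 93.8, 94.2, 91.6 and 93.3 of the lists by length. Its summit pileup nevertheless ranked at percentiles 44.5 to 48.4. Among peaks within 5 percentile points of the same length in the same list, 3.18% to 6.22% had a lower summit, against a median percentile of 81.3 to 83.7.

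The single peak of Nkx2-9 measured 1895, 1823, 2102 and 2154 bp, and 0.882% to 2.82% of peaks of like length had a lower summit. The widest peak at Nkx6-2 measured 2639, 2623, 2469 and 2575 bp, with 17.0% to 24.1% of like peaks lower. At Nkx2-2 the widest peak measured 2466, 2391, 1447 and 982 bp, but it was not at the same place in each library. In the H3K9cr libraries it was a long, low peak at the 5′ end of the record (pileup percentiles 22.5 and 14.2, with 0.0705% of like peaks lower in each), and in the H3K9ac libraries it was the tall peak downstream of the start, with 38.8% and 72.4% of like peaks lower. Nkx2-1 had only short peaks, with a widest of 776, 889, 439 and 753 bp and 4.63% to 16.6% of like peaks lower.

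The widest peak was longer in both H3K9cr libraries than in both H3K9ac libraries at Nkx2-1, Nkx2-2, Nkx6-1 and Nkx6-2, an ordering found at 35.3% of occupied genes. The reverse ordering, found at Nkx2-9, held at 4.04%. Each of these 5 comparisons had an exact permutation p of 0.333 (n = 2 per mark), the smallest possible. The largest difference was at Nkx2-2, with 2428.5 bp ± 53.0 for H3K9cr and 1214.5 bp ± 329 for H3K9ac (SD, n = 2 each), which compares peaks at different places. The widest peaks were also at different places at Nkx2-1, where that of H3K9cr replicate 1 began at 56535827 and the others lay within 56534374 to 56535262. At Nkx6-1 the widest peak of H3K9ac replicate 1 was the one over the 3′ end of the record, and in the other 3 libraries it was the one over the start.

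**Figure D3:**
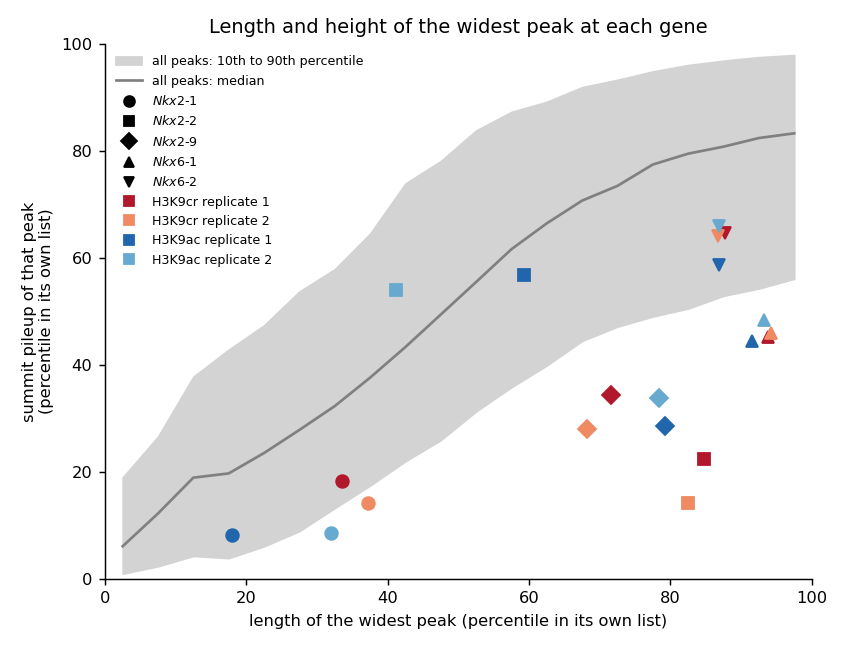
Length of the widest peak at each gene (percentile in its own list, horizontal) against the summit pileup of that peak (percentile in its own list, vertical), 1 point per gene and library, over the 10th to 90th percentile (grey band) and median (grey line) of all peaks of each length, averaged over the 4 libraries. Nkx6-1 and Nkx2-9 lie below the band in all 4 libraries, and Nkx2-1 in H3K9cr replicate 2 and H3K9ac replicate 2. Nkx2-2 lies below it in both H3K9cr libraries, where its peaks of 2466 and 2391 bp have percentiles of 22.5 and 14.2.

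The length of DNA covered by peaks in a window was set against the spread between replicates. Nkx6-1 had the largest share of its window covered, a mean of 32.8%, and 98.4% of occupied genes had less. A share depends on window length, which is smaller for short genes (25528 bp here), and covered base pairs were not ranked across genes. The covered length of Nkx6-1 was 8334, 8663, 8344 and 8132 bp, so that the marks overlapped (8498.5 bp ± 233 for H3K9cr and 8238 bp ± 150 for H3K9ac, SD, n = 2 each, exact permutation p = 0.667). Nkx6-2 had 3924, 4031, 3681 and 3984 bp, also overlapping (exact permutation p = 0.667, n = 2 per mark). Nkx2-1 had 2195, 2658, 1085 and 2631 bp (2426.5 bp ± 327 and 1858 bp ± 1093, SD, n = 2 each, exact permutation p = 0.667). The value of H3K9ac replicate 1 was far below the others, and that of H3K9ac replicate 2 lay between the H3K9cr values.

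The marks separated at the other 2 genes, in opposite directions. Nkx2-2 had 6344, 6711, 5349 and 5812 bp, both H3K9cr values above both H3K9ac values, which was the case at 41.1% of the genes tested. The means were 6527.5 bp ± 260 and 5580.5 bp ± 327 (SD, n = 2 each, exact permutation p = 0.333), and their difference of 947 bp became 2321 bp with only peaks of a -log10 q of at least 10. This change depended on where the cutoff fell at the 5′ end of the record. There the long H3K9cr peaks passed it, that of replicate 2 barely (15.8 and 10.1). Of the H3K9ac peaks there, one in replicate 2 passed (13.3), and the others, at 7.36 to 8.28, did not. Nkx2-9 had 1895, 1823, 2102 and 2154 bp, with both H3K9ac values above both H3K9cr values, the ordering of 2.79% of genes. The means were 1859 bp ± 50.9 and 2128 bp ± 36.8 (SD, n = 2 each, exact permutation p = 0.333).

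Neither difference passed the test across all genes. After subtraction of each library's median, covered length was fitted in limma over 15962 genes with a peak in at least 2 libraries, and 0 genes passed an adjusted p of 0.05 (percent called 0 in either direction, smallest Benjamini-Hochberg adjusted p 0.212). An unadjusted p under 0.05 was found at 7.41% of genes. The H3K9cr minus H3K9ac difference after centring was 768 bp ± 180 (SE) at Nkx2-2 (limma, Benjamini-Hochberg adjusted p = 0.427) and -448 bp ± 143 (SE) at Nkx2-9 (limma, adjusted p = 0.576). These were the only 2 of the 5 genes with an unadjusted p below 0.05 (0.00924 and 0.0283, limma). Nkx2-1 (390 bp ± 474), Nkx6-1 (81.8 bp ± 203) and Nkx6-2 (-33.8 bp ± 131) differed by less than their standard errors.

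The percentile of the tallest peak was fitted in the same way, as a normal score of its rank, over 15599 genes. There limma called 5 genes higher in H3K9cr (0.0321%) and 0 higher in H3K9ac, none of them among the 5 Nkx genes. With equal numbers of peaks per list it called 1 and 2, and with the lists as deposited 9.47% of genes had an unadjusted p under 0.05. The largest difference among the 5 was 0.16 ± 0.08 (SE) in normal scores at Nkx2-1 (limma, Benjamini-Hochberg adjusted p = 0.557), which turned to -0.0655 with equal numbers of peaks (limma, adjusted p = 0.893). The adjusted p of the others lay between 0.859 and 0.999. All p-values of both fits rest on the spread between these 4 libraries. In limma this spread is shared across the genes tested, so a p-value does not reflect a gene's own spread alone.

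**Figure D4:**
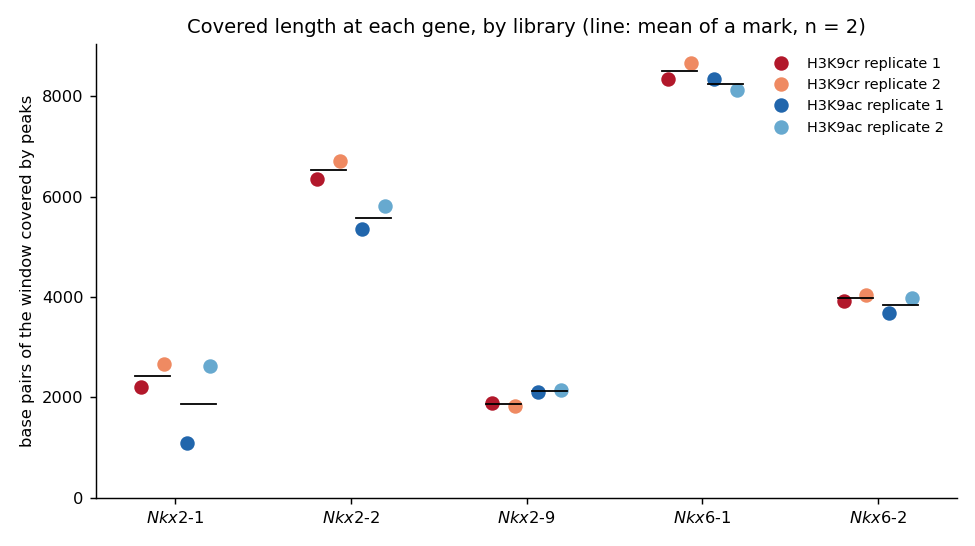
Base pairs of each window covered by peaks, 1 point per library, with a line at the mean of each mark (n = 2). Both H3K9cr points lie above both H3K9ac points at Nkx2-2 (6344 and 6711 against 5349 and 5812 bp), the reverse holds at Nkx2-9, and the marks overlap at the other 3 genes.

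Agreement between libraries was examined by merging the peaks of all 4 into regions. The 5 windows held 21 regions, and 11 of them (52.4%) were listed in all libraries, compared with 77.4% of the 25494 regions in the windows of all protein-coding genes. No region was listed in both libraries of one mark and neither of the other, a class that held 2.14% of regions for H3K9cr alone and 0.228% for H3K9ac alone. Of the remaining 10 regions, 5 had a peak in 3 libraries, 3 in 2 and 2 in a single library. The regions that were not shared were weak ones. All 7 regions whose tallest peak stood above percentile 30 were listed in every library, as were 2 of 2 between percentiles 20 and 30, 1 of 7 between 10 and 20 and 1 of 5 below 10. Over all windows the corresponding shares were 95.2% between 30 and 50, 99.9% between 50 and 70, 61.8%, 21.7% and 1.87%. Sites below the caller's threshold are left out of a list, so an unlisted site may still carry the mark.

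In base pairs, the Jaccard index (shared length over total length) of the peak sets in the 5 windows averaged 0.709 for the 2 pairs of the same mark and 0.691 for the 4 pairs of different marks. In the windows of all protein-coding genes it was 0.855 and 0.850. By gene, the index was 0.906 for either kind of pair at Nkx6-2 and 0.776 and 0.753 at Nkx6-1. It fell to 0.557 and 0.535 at Nkx2-2 and to 0.466 and 0.474 at Nkx2-1, the genes among the 5 with the weakest peaks near their starts. At Nkx2-9, unlike the other 4, the same-mark pairs (0.948 and 0.962) both exceeded all 4 pairs of different marks (0.846 to 0.885). How often this ordering occurs over all genes was not computed. The H3K9ac peaks of Nkx2-9 reached 1874 and 1843 bp downstream of the start, and its H3K9cr peaks 1649 and 1581 bp. With a single peak per library, the index there restates the difference in covered length and is not a separate result.

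The regions of Nkx2-1 (chromosome 12, 56531935 to 56536908, GRCm38) were 5 in number, and none had a fold enrichment above 6.88. A region at 56535827 to 56536695, just inside the 5′ end of the record, was listed in all libraries but H3K9ac replicate 1. One at 56534374 to 56535262, within the record, was listed in all but H3K9cr replicate 1. One upstream of the start, at 56537314 to 56537591, was listed in H3K9cr replicate 1 alone. Both regions that all 4 libraries shared lay outside the record: 56528859 to 56529699 overlapped the non-coding record Sfta3-ps, and 56540641 to 56541210 the non-coding record Gm26973. The latter record also spans Nkx2-9, so these peaks cannot be assigned to a single gene.

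The record of Nkx2-2 (chromosome 2, 147176485 to 147195434) extends beyond its annotated start at 147186402, which lies inside it. Its tallest region, at 147177931 to 147179416, lay 6986 to 8471 bp downstream of that start within the record, with fold enrichments of 31.3, 19.7, 27.1 and 23.2 and summits within 40 bp of each other. A second shared region at 147180657 to 147181575 had fold enrichments of 10.0, 11.0, 11.6 and 14.1. The third shared region, 147192984 to 147195575, covered the far 5′ end of the record. There each H3K9cr library had 1 unbroken peak, H3K9ac replicate 1 had 2 peaks and H3K9ac replicate 2 had 3. The other 7 regions lay between the second and the third of these, around the annotated start, and were listed in 1 to 3 libraries each. Of the 10 regions, 7 also overlapped the antisense record Nkx2-2os, and the assay does not separate strands.

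Nkx2-9 (chromosome 12, 56611389 to 56613569) had 1 region, 56611410 to 56613594, which covered nearly the whole record. The summit lay 243, 257, 985 and 53 bp downstream of the start, so the 2 H3K9cr summits were 14 bp apart and the 2 H3K9ac summits 932 bp apart. Over all annotated starts inside a peak, the median summit lay 257, 282, 276 and 273 bp downstream.

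Nkx6-1 (chromosome 5, 101659184 to 101664711) had 3 regions in its window, all listed in every library. The region over the start, 101661780 to 101666257, had its highest summits 54, 89, 22 and 71 bp upstream of the start. About 75% of summits of peaks over annotated starts lay downstream (74.5% to 75.6% by library). Upstream of the gene, the region 101666628 to 101669397 overlapped no annotated record and held 8 shorter peaks.

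The third region of Nkx6-1, 101657204 to 101660291, lay over the 3′ end of the record, 4420 to 7507 bp downstream of the start, with 1 peak per library. Its peaks were as tall as those at the start, at pileup percentiles 46.1, 47.9, 44.5 and 48.1. The summits of H3K9cr were at 101657814 and 101657833 and those of H3K9ac at 101659140 and 101659107. Replicates of a mark thus agreed within 19 and 33 bp, whereas the nearest summits of different marks were 1274 bp apart. Fold enrichment in this region was 11.7 and 8.81 for H3K9cr and 17.8 and 24.1 for H3K9ac. These values belong to peaks whose summits differ in position, and by pileup percentile the marks overlapped. The share of all regions with this ordering of fold enrichment was not computed. The position was singled out after its values were seen. Of 21018 regions with 1 peak in each library, 30.9% had both summits of one mark on the same side of both summits of the other. With limits also set after these values were seen, 20 (0.0952%) had marks at least 1 kb apart with both pairs of replicates within 100 bp, and the median spread of the 4 summits was 71 bp.

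Nkx6-2 (chromosome 7, 139579376 to 139582797) had 2 regions, both listed in every library. The one over the start, 139580920 to 139583739, had all 4 summits within 45 bp of each other, 206, 221, 199 and 176 bp downstream of the start. The other, 139584226 to 139585657, lay at positions -2860 to -1429 from the start, upstream, with fold enrichments of 9.76, 9.42, 11.8 and 7.98. Both overlapped the non-coding record Gm33031, which begins at 139582788, beside the annotated start at 139582797. The protein-coding gene Inpp5a overlaps the 3′ end of the Nkx6-2 record, and its tallest peak stood at percentiles 93.1 to 94.5.

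The 5 genes were set beside lists of related genes. All 9 other Nkx genes were occupied in every library, with a median percentile of the tallest peak of 42.3, 41.9, 38.0 and 45.7, close to that of the 5 genes (46.1, 47.9, 44.5 and 48.4). Among them, the mean over libraries was 81.6 at Nkx6-3, 57.3 at Nkx3-2 and 41.9 at Nkx1-2. Of the 6 other Nkx genes with an annotated start in the table, 4 had it inside a peak in all 4 libraries. For the 5 genes that count was 3 of 5, and over all protein-coding genes with an entry it was 55.6%.

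Other transcription factors of neural tube domains ranked much like the Nkx genes. All 19 were occupied in every library, with medians of 41.8, 39.0, 35.5 and 40.6, and 13 of 16 starts lay inside a peak in all 4 libraries. Irx3 (57.2), Pax6 (54.3) and Gata2 (54.3), which encode regulators of interneuron or eye and spinal cord progenitors, had means above those medians. Over the 19, the median share of the window covered was 14.4%, 15.2%, 11.2% and 15.7%. It was 16.3%, 17.2%, 13.7% and 14.9% for the 5 Nkx genes and 6.01%, 6.11%, 5.44% and 5.87% for all occupied genes. These shares depend on window length, which was not matched between the lists.

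The Hedgehog pathway, which acts upstream of the ventral Nkx genes, stood higher. All 13 of its genes were occupied in every library with medians of 82.1, 78.3, 80.5 and 80.1, near those of all occupied genes, and 8 of 9 starts lay inside a peak in all 4 libraries. The coreceptor gene Boc (94.5), Sufu (87.6), an inhibitor of the GLI factors, and Gli3 (87.0) stood above those medians, while the ligand gene Shh itself stood at 31.4. The 5 genes of the Groucho family, some of whose products bind NK proteins, were all occupied (medians 69.2, 70.9, 69.1 and 69.6), led by Tle3 (96.4) and Tle4 (90.4). The 8 pluripotency markers had medians of 84.3, 80.7, 81.7 and 80.2, led by Sall4 (87.9), Lin28a (87.6), Utf1 (84.2) and Sox2 (84.1).

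Products of differentiated cells that use Nkx factors were mostly without peaks. Of 16 such genes, 6 were occupied in all 4 libraries and 10 had no peak in any, compared with 26.1% of all protein-coding genes without one. The latter included the thyroid gene Tg, the lung surfactant genes Sftpb and Sftpa1, and the pancreatic genes Ins1, Ins2, Gcg, Iapp and Slc2a2. The occupied members were Mog (91.4), Tshr (59.8), Mbp (54.8), Sftpc (39.1), Scgb1a1 (31.1) and Mag (26.1). None of the 8 starts with an entry lay inside a peak in all 4 libraries, so the peaks of Mog and Mag, both among those 8, lay elsewhere in their windows.

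**Figure D5:**
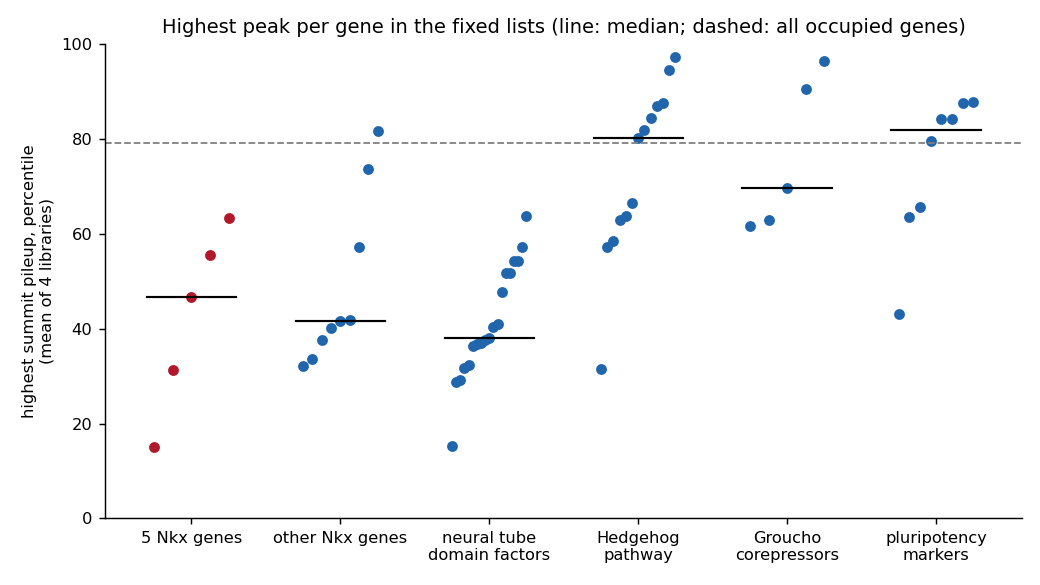
Mean over 4 libraries of the percentile of the highest summit pileup, 1 point per gene, for the 5 Nkx genes and 5 lists, with a line at each list's median and a dashed line at the mean over libraries of the median of all occupied genes. The Nkx genes and the other neural tube factors lie mostly below 60, whereas Boc and Tle3 lie above 94.

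The nearest protein-coding neighbours gave the local setting. Nkx2-1 and Nkx2-9 are each other's neighbours, 74481 bp apart, and beyond them lie Mbip at 186002 bp from Nkx2-1 (percentiles 90.3 to 93.4) and Pax9 at 78124 bp from Nkx2-9 (41.3 to 52.5). Nkx2-2 is flanked by Nkx2-4 at 91046 bp (36.3 to 45.7) and Pax1 at 166496 bp (27.3 to 33.6). Nkx6-1 has Gm42134 at 58388 bp (63.9 to 68.2) and Gpat3 at 760082 bp (53.7 to 57.0). Cfap46, at 18117 bp from Nkx6-2, stood at 42.7 to 50.5. Pax1, Pax9 and Nkx2-4, themselves developmental regulators, thus ranked between 27.3 and 52.5, whereas Mbip and Inpp5a ranked above 90. Cfap46, within the former range, and Gpat3 and Gm42134, above it, lay between 42.7 and 68.2.

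The genes most like each of the 5 were found by the Euclidean distance over 8 values, the share of the window covered and the percentile of the tallest peak in each library. For Nkx6-1 these were the homeobox gene Lhx5 (distance 6.61) and the proneural gene Neurog2 (7.64), and for Nkx2-9 the homeobox gene Evx1 (4.70) and Lgi4 (6.56). Nkx2-1 was nearest to Ripply1 (7.08) and Hoxb5 (11.5), Nkx2-2 to Cd37 (4.38) and Id4 (4.73), and Nkx6-2 to Phlda1 (4.04) and Syp (5.08).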

How the data were processed

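Native ChIP libraries of H3K9cr and H3K9ac from P19 cells (2 replicates each) were compared through 4 peak lists, 1 per library, that the authors deposited. Groups and replicate numbers came from the sample titles. The submitters' processing notes name Bowtie2 2.4.1, MACS2 2.2.7.1 and GRCm38, while options and the pairing with inputs were not given in the sources used here. Pileup is, per the file headers, a coverage signal at the summit, and the lists also give the -log10 p-value, the -log10 q-value (at least 2.02 in every list) and the fold enrichment, a ratio over local background. Depth is unknown, intervals from counts are therefore left out, and longer lists or wider peaks can follow from depth as well as from signal.

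From these, peaks overlapping each RefSeq record (GRCm38.p6) and 10 kb on either side by at least 1 bp were counted, and covered length, peak length and the percentiles of pileup and fold enrichment within a list were computed. The 2 marks were compared by two-sided exact permutation and, across all genes, with limma 3.58.1 (R 4.3.3, Benjamini-Hochberg adjustment, threshold 0.05) on centred covered length and on normal scores of the percentile. Code was tested on simulated data. Python 3.11.15 was used otherwise. RefSeq gave a start and promoter for 17491 of 21883 protein-coding genes (21262 starts), among them all 5 genes described.

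The genes and lists were chosen with earlier results of these data known. Named were the 5 genes, list members lacking a peak in a library and up to 4 others per list with the highest mean percentile, the nearest protein-coding neighbours, and the 2 most alike genes, leaving out Gm and Rik names and genes that share a region. Some genes taken by this rule are not reported here. The lower-ranked Shh, Scgb1a1 and Mag were named after their values were seen. Alternatives were other windows, a stricter q-value, equal list lengths, other scalings, a replicate block and leaving out each replicate.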

Additional observations from a re-analysis of the deposited data

How the results depend on the processing

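Occupancy by both marks in every library held for 5 of 5 genes with windows of 0, 2.5, 5 and 25 kb, with equal list lengths and without any 1 replicate (5 to 5). It held for 4 with peaks of a -log10 q of at least 10, when Nkx2-1 kept 0, 1, 0 and 1 peaks. The count of 3 starts inside a peak stayed at 3 under the alternatives added after seeing the data (stricter threshold, equal lengths, and each replicate left out, 3 to 3). No gene of the 5 passed the limma threshold under any setting. The difference in mean covered length moved from 568.5 to -308.5 bp at Nkx2-1 with equal numbers of peaks, from 947 to 2321 bp at Nkx2-2 with the stricter threshold, and from 260.5 to -67.5 bp at Nkx6-1 with 2.5 kb. Ranking by fold enrichment moved the mean percentile from 15.1 to 17.1 at Nkx2-1 and from 46.7 to 50.2 at Nkx6-1.

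In the fitted difference of covered length, H3K9cr minus H3K9ac, the sign turned at Nkx2-1 with the stricter threshold (-190 bp) and without H3K9ac replicate 1 (range over left-out replicates -285.5 to 1060 bp). It turned at Nkx6-1 on the scale log2(covered bp + 100) (-0.0446), with 2.5 kb (-201 bp), with the stricter threshold (-40.2 bp) and among left-out replicates (-127 to 285.5 bp). At Nkx6-2 it turned without centring (145 bp), over all protein-coding genes (11.5 bp) and among left-out replicates (-87.5 to 15 bp). The sign at Nkx2-2 (619 to 912.5 bp) and Nkx2-9 (-524.5 to -376 bp) did not. Omitting the centring moved the median difference of all genes from -16.2 to 162.5 bp and the genes with an unadjusted p under 0.05 from 1034 higher in H3K9cr and 149 in H3K9ac to 1623 and 28.

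In normal scores of the percentile, equal numbers of peaks turned the difference at Nkx2-1 (-0.0655), Nkx2-2 (-0.0616), Nkx6-1 (-0.0677) and Nkx6-2 (-0.00303), and ranking by fold enrichment turned it at Nkx6-1 (-0.0200). Left-out replicates gave -0.0496 to 0.0588 at Nkx2-2, -0.0891 to 0.0881 at Nkx2-9, -0.0357 to 0.0639 at Nkx6-1 and -0.0414 to 0.150 at Nkx6-2. Over all genes, limma called 37 genes for covered length on the log2 scale (29 higher in H3K9cr, 8 in H3K9ac) against 0. For the percentile it called 0 by fold enrichment, 3 with equal numbers of peaks, 12 with 2.5 kb and 91 to 770 without 1 replicate, against 5; without H3K9ac replicate 2 it called 770. A lone library has no replicate there, so its spread is taken from the other mark and from limma's sharing of variance across genes. The cause of these changes was not tested.

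With the replicate block, limma called 0 genes for covered length (smallest adjusted p 0.179) and 160 for the percentile (150 higher in H3K9cr, 10 in H3K9ac), none of the 5 genes among them. The labels do not say that equal numbers pair samples, and the deviations of same-numbered replicates correlated at 0.14 and 0.03 across genes for the 2 measures.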

Other observations

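The neighbouring genes Nkx2-1 and Nkx2-9 lie 74481 bp apart on chromosome 12, inside or beside the same non-coding record Gm26973, and their promoters had similar CpG ratios (0.559 and 0.571). Nkx2-1 had 4, 4, 3 and 4 short peaks in the order used above and none over its start. Nkx2-9 had a single peak per library that covered its start and most of its record. The share of the window covered was nonetheless close, with means of 8.58% and 8.99%.

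Nkx2-2 kept its height away from its annotated start. Its tallest peak lay 7773, 7795, 7794 and 7755 bp downstream, within the 3′ part of the record, and had a pileup percentile of 53.5 to 57.8, whereas no peak within 2.5 kb of the start exceeded percentile 11.7. The record itself begins far upstream of that start, at 147195434, and the region at its 5′ end reached percentile 22.5.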
